A study of Mus musculus with 12 samples.

Results

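The 9 genes described here are the enzymes and transporter that commit liver cells to making glucose (Pck1, Pck2, Fbp1, G6pc and Slc37a4) and 4 regulators of these genes (Creb3l3, Crtc2, Sik1 and Klf15). They were taken by symbol, and the table lists them in capitals (PCK1, PCK2, FBP1, G6PC, SLC37A4, CREB3L3, CRTC2, SIK1 and KLF15). All 9 were found among the 56441 genes of the table, where the catalytic subunit of glucose-6-phosphatase carries the symbol G6pc, and all 9 were among the 15228 genes with enough counts to be tested. Mouse liver RNA was sequenced in 12 libraries, 3 in each of 4 groups. The fasted FH group was made of C57BL/6 mice that received AAV8 carrying fumarate hydratase (FH) and were fasted for 24 h, and the fasted vector group of C57BL/6 mice that received AAV8 vector and the same fast. The ob/ob FH group was made of ob/ob mice, which lack leptin and become obese, given AAV8 with FH and then a high-fat diet, and the ob/ob vector group of ob/ob mice given AAV8 vector and the same diet. All mice were injected in the tail vein when 6 to 8 weeks old, and the fast or the end of the diet came 1 month later. FH hydrates fumarate to malate in the mitochondria and the cytosol. The virus is described as liver-specific, its promoter and the species of the FH sequence are not stated, and the labels name both liver tissue and primary hepatocytes. The labels do not state whether the libraries within a group stem from different mice, so every p-value is about the variation among libraries, which may be technical.

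In fasting, the liver builds glucose from lactate, amino acids and glycerol. PEPCK turns oxaloacetate into phosphoenolpyruvate (Pck1 in the cytosol, Pck2 in mitochondria), Fbp1 removes a phosphate from fructose-1,6-bisphosphate, Slc37a4 carries glucose-6-phosphate into the endoplasmic reticulum, and G6pc splits it there into free glucose. Glucagon raises cAMP, protein kinase A phosphorylates CREB and, by restraining the salt-inducible kinases, lets the coactivator CRTC2 enter the nucleus, where both switch on Pck1, G6pc and also Sik1, which feeds back on CRTC2. CREBH (Creb3l3) is a membrane-bound relative of CREB that is made in hepatocytes in fasting, and KLF15 is a fasting-induced factor of amino acid breakdown and gluconeogenesis.

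The sequence just upstream of the start was read for 7 of the 9 genes from RefSeq promoter windows of build GRCm38.p6, which is not the build of the alignments (GRCm39). Those of 3 genes whose levels went together over the libraries and of G6pc, which went apart from them, are shown here as 250 bases that end at the annotated start, with the CRE half-site TGACG, or its reverse complement CGTCA, in capitals. A CRE is the site that CREB binds.
Pck1, chr2:173152823-173153072, plus strand: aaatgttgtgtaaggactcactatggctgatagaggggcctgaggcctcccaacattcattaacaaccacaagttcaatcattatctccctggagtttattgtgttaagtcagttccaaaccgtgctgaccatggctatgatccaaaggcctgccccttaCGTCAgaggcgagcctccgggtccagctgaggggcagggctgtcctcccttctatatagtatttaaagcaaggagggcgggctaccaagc
Slc37a4, chr9:44396849-44397098, plus strand: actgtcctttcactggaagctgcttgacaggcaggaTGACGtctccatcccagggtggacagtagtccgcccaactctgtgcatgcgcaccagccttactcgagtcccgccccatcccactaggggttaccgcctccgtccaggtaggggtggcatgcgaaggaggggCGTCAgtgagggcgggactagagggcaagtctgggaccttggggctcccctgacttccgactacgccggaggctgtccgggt
Klf15, chr6:90462326-90462575, plus strand: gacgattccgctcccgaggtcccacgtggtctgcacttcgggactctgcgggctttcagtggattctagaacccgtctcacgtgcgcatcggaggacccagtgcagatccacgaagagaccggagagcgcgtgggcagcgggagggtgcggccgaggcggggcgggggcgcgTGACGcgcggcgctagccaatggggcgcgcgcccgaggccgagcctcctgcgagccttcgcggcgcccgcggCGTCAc
G6pc, chr11:101367466-101367715, plus strand: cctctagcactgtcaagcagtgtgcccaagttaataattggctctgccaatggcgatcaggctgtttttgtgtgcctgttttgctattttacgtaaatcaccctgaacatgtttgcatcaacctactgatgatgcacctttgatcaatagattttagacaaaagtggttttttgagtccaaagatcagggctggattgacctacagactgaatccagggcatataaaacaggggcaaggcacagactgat
The half-site of Pck1 began 90 bases upstream of the start. Slc37a4 had half-sites that began 214 and 82 bases upstream, and Klf15 had half-sites 78 and 6 bases upstream. The G6pc window held neither TGACG nor CGTCA. Only exact matches were searched, so sequences close to a CRE, such as ttacgtaa in the G6pc window, were not counted. Over the 10 windows of the 7 genes, 5 windows of 4 genes (Pck1, Slc37a4, Creb3l3 and Klf15) held the half-site on either strand, against 17.8% of all 32851 windows of the same length. A pair of the Slc37a4 windows overlap and share a site. The Slc37a4 windows that are not shown held 1 and 0 half-sites. Those of Creb3l3, which also went with Pck1 over the libraries (r = 0.95), are not shown and held 1 and 0. The windows of Pck2 and of Fbp1 are not shown and held 0, although Fbp1 rose with FH in both models (TMM scaling, below). The full palindromic CRE TGACGTCA, which contains the half-site, was in 0 of the 10 windows and in 1.55% of all windows, and the FOXO site GTAAACA, searched on both strands, was in 0 of 10 and in 3.17%. A match describes letters in a window and is not a bound site, and windows without a match say nothing of the factor.

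The make-up of the libraries bears on every value that follows. Total counts were 19107050 to 25873379 in the fasted FH libraries, 12231828 to 14884323 in fasted vector, 21632289 to 23506015 in ob/ob FH and 12573267 to 14496559 in ob/ob vector. Fh1, the mouse gene of FH, was higher with the virus by 1.35 (SE 0.20) on the log2 scale in fasted livers and by 2.48 (SE 0.21) in ob/ob livers (edgeR adjusted p = 9.95e-05 and 1.79e-06). On library totals, the summed level of 5 hepatocyte markers lay at 97600 to 107000 CPM, the count scaled to depth, in fasted FH, 46300 to 60600 in fasted vector, 116000 to 131000 in ob/ob FH and 58800 to 70000 in ob/ob vector. The 6 sinusoidal endothelial markers summed to 69.5 to 80.3 CPM in fasted FH, 263 to 351 in fasted vector, 154 to 215 in ob/ob FH and 220 to 270 in ob/ob vector, and Malat1, a nuclear RNA, had 36.2 to 58.4 CPM in fasted FH, 511 to 687 in fasted vector, 10.5 to 30.1 in ob/ob FH and 472 to 612 in ob/ob vector. In bulk tissue, fewer cells of a type and less RNA per cell cannot be told apart. All levels below are CPM after scaling by the trimmed mean of M values (TMM), which sets the typical gene near no change. Dividing by library totals instead shifts the median of all genes by -0.67 on the log2 scale for FH in fasted livers and by -0.62 for FH in ob/ob livers, so both values are given. On TMM scaling the endothelial markers summed to 94.9 to 108 CPM in fasted FH and 230 to 293 in fasted vector. In ob/ob livers they summed to 187 to 237 CPM with FH and 160 to 204 with vector, which overlapped. Xist had 2242 to 4992 counts and 4 Y-linked genes 0 counts in the 3 libraries of ob/ob livers with FH, while the other 9 libraries had 1 to 24 counts of Xist and 2304 to 5181 of the Y-linked genes, so that sex markers and FH cannot be told apart in ob/ob livers. Among ob/ob vector libraries, replicate 2 stood apart, with 29.3 CPM of the clock gene Arntl on library totals against 5.97 and 7.86. It also had 0.564 CPM of the clock gene Dbp against 48.9 and 48.4, and 448 CPM of Hsd3b5 against 0.0795 and 0.

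In fasted livers, 4 of the 9 genes rose with FH (Slc37a4, Fbp1, Pck1 and Creb3l3), G6pc fell, and Pck2, Crtc2, Sik1 and Klf15 did not pass the test. Of all genes tested 27.4% were called higher and 27.6% lower in this comparison, at an edgeR adjusted p under 0.05. In ob/ob livers 6 of the 9 rose (Slc37a4, Fbp1, Pck1, Pck2, Klf15 and Creb3l3) and both Crtc2 and Sik1 fell, beside 25.8% and 27.9% of all genes. In either direction 55.0% of all genes were called in fasted livers and 53.7% in ob/ob livers, so that the call of a single member is not unusual. The same 4 rises and 1 fall in fasted livers went with groups that did not overlap, as did 30.4% and 30.6% of all genes, and in ob/ob livers the 6 rises and the fall of Crtc2, beside 30.6% and 31.2%. On library totals the picture changed, with only Slc37a4 called higher and 5 called lower (Pck2, Crtc2, Sik1, Klf15 and G6pc) in fasted livers, where 7.16% and 55.7% of all genes were called higher and lower. For ob/ob livers the same scaling left Slc37a4 and Fbp1 higher and Crtc2, Sik1 and G6pc lower, beside 6.83% and 53.3% of all genes. The genes that were higher on both scalings in both models therefore came down to Slc37a4 alone, and those lower on both scalings to G6pc in fasted livers and to Crtc2 and Sik1 in ob/ob livers.

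**Figure D1:**
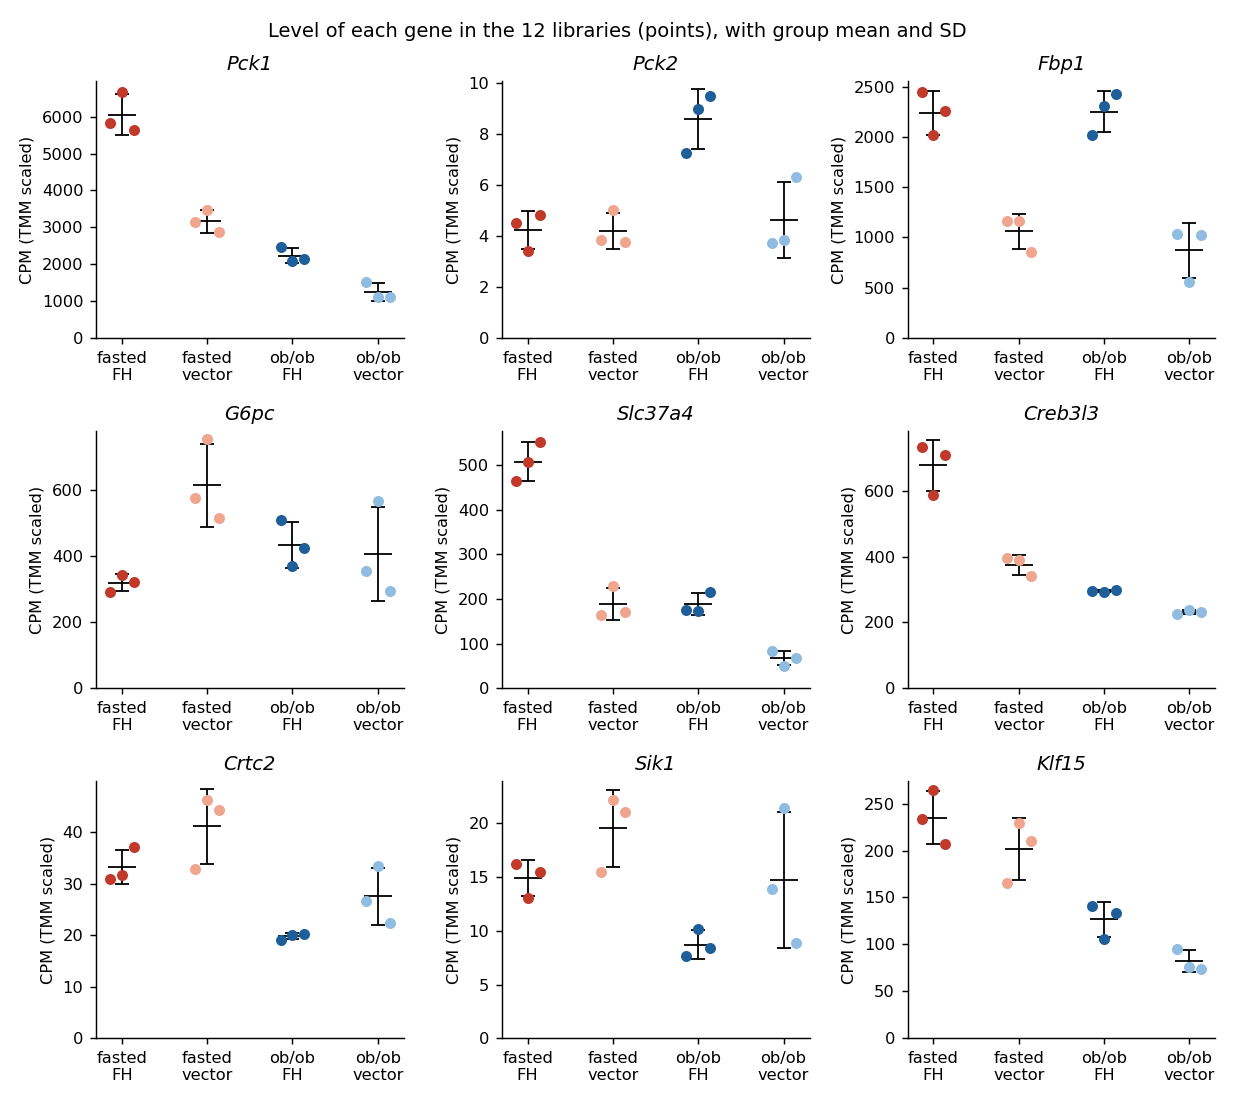
Level of each of the 9 genes in every library, in CPM after TMM scaling on linear axes that start at 0. Points are libraries, the long bar is the group mean and the short bars the SD of 3 libraries. Pck1, Fbp1, Slc37a4 and Creb3l3 lie higher with FH than with vector in both models with no overlap, although on library totals Creb3l3 is lower with FH in ob/ob livers. G6pc lies lower with FH in fasted livers, and its ob/ob groups overlap.

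Pck1, which encodes the cytosolic PEPCK that is regulated almost wholly through its transcription, stood at 5835, 6681 and 5632 CPM in the fasted FH libraries and at 3149, 3485 and 2869 CPM in the fasted vector libraries. The ob/ob libraries held it at 2460, 2084 and 2136 CPM with FH and at 1526, 1108 and 1102 CPM with vector. The FH libraries lay above the vector libraries of the same model without overlap, and every fasted library, with or without FH, lay above every ob/ob library. Pck1 rose 1.91-fold with FH in fasted livers (log2 fold change 0.93, SE 0.18, edgeR adjusted p = 6.58e-04) and 1.79-fold in ob/ob livers (0.84, SE 0.18, adjusted p = 0.00147). On library totals both shrank below the threshold, to 0.27 (adjusted p = 0.166) and 0.21 (adjusted p = 0.283). Against the whole table, the fasted change lay above that of 87.9% of all tested genes and the ob/ob change above that of 86.1%, figures that depend little on the scaling.

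Fbp1, the fructose-1,6-bisphosphatase of liver and kidney, had 2449, 2014 and 2261 CPM with FH in fasted livers and 1159, 1163 and 860 CPM with vector. The ob/ob libraries had 2022, 2308 and 2422 CPM with FH and 1037, 556 and 1028 CPM with vector. The FH libraries of both models fell in a single range, and so did the vector libraries apart from the low ob/ob vector replicate 2. Fbp1 rose 2.11-fold in fasted livers (log2 1.08, SE 0.22, edgeR adjusted p = 0.0012) and 2.58-fold in ob/ob livers (1.37, SE 0.23, adjusted p = 2.31e-04). On library totals the fasted value was 0.42 (adjusted p = 0.109) and the ob/ob value 0.75, which passed (adjusted p = 0.00906).

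Slc37a4, the glucose-6-phosphate transporter that feeds the phosphatase, had 465, 508 and 551 CPM with FH in fasted livers against 165, 229 and 170 CPM with vector. Levels in ob/ob livers were 176, 173 and 216 CPM with FH against 83.1, 50.8 and 68.3 CPM with vector. The ob/ob FH libraries overlapped with the fasted vector libraries, and both lay between the other groups. Slc37a4 had the largest rise of the 9 genes in both models on TMM scaling, 2.7-fold in fasted livers (log2 1.43, SE 0.19, edgeR adjusted p = 3.77e-05) and 2.8-fold in ob/ob livers (1.48, SE 0.19, adjusted p = 3.02e-05). These changes lay above those of 96.6% and 97.2% of all tested genes. On library totals they were 0.77 and 0.86, and both passed (adjusted p = 0.00297 and 0.00138).

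G6pc, the catalytic subunit of glucose-6-phosphatase and the last step before free glucose, went the other way in fasted livers. It had 293, 343 and 323 CPM with FH against 576, 755 and 515 CPM with vector. Those in ob/ob livers were 509, 372 and 424 CPM with FH against 356, 567 and 296 CPM with vector. The fasted groups did not overlap, while in ob/ob livers the 3 FH libraries lay inside the range of the vector libraries, of which replicate 2 was the highest. G6pc fell 1.92-fold with FH in fasted livers (log2 fold change -0.94, SE 0.23, edgeR adjusted p = 0.00305), and the fall was called as each fasted library was left out in turn (-1.05 to -0.76). In ob/ob livers it stood at 0.10 (SE 0.22, adjusted p = 0.734), between -0.07 and 0.43 as single libraries were left out. On library totals it was lower with FH in both models, by -1.61 in fasted livers (adjusted p = 3.52e-05) and by -0.53 in ob/ob livers (adjusted p = 0.0428). The fasted FH and vector libraries also differed in clock genes. On library totals Dbp was at 33.5 to 46.8 CPM with FH and 2.69 to 6.64 CPM with vector, and Arntl at 1.27 to 2.77 CPM with FH and 20.4 to 25.8 CPM with vector, and their part in the fall of G6pc was not tested.

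Pck2, the mitochondrial PEPCK, was scarce, at 4.52, 3.41 and 4.82 CPM with FH and 3.83, 5.02 and 3.79 CPM with vector in fasted livers. The ob/ob livers had 7.24, 8.99 and 9.47 CPM with FH against 3.71, 3.83 and 6.33 CPM with vector. Only the ob/ob FH libraries stood out, above the 9 others without overlap. Pck2 rose 1.85-fold with FH in ob/ob livers (log2 0.89, SE 0.23, edgeR adjusted p = 0.00585), or 0.28 on library totals (adjusted p = 0.331). In fasted livers it stood at 0.01 (SE 0.25, adjusted p = 0.971), or -0.65 on library totals (adjusted p = 0.0345). Its value is uncertain because Pck2 overlaps the antisense gene Gm10876 and the strand setting of the counts was not stated. The Kupffer cell and macrophage markers were also high in the ob/ob FH libraries. On library totals the sum of 6 genes was 370 to 569 CPM there and 238 to 402 CPM in ob/ob vector libraries. The fasted vector libraries, at 280 to 497 CPM, overlapped with them, and fasted FH had 116 to 132 CPM. On TMM scaling, as used for Pck2, the ob/ob FH libraries had a sum of 448 to 640 CPM, against 174 to 305 CPM for ob/ob vector. Fasted vector libraries reached 245 to 442 CPM, while fasted FH libraries held 156 to 180 CPM. On that scaling the ob/ob FH libraries lay above all others without overlap, as they did for Pck2. The part of these markers in the level of Pck2 was not tested.

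Creb3l3, the gene of CREBH, had 733, 589 and 709 CPM with FH in fasted livers against 397, 390 and 341 CPM with vector. Among ob/ob libraries it had 295, 294 and 299 CPM with FH against 225, 239 and 232 CPM with vector. The 4 groups formed separate steps without overlap, with the fasted livers above the ob/ob livers and FH above vector within each. Creb3l3 rose 1.80-fold in fasted livers (log2 0.85, SE 0.13, edgeR adjusted p = 1.01e-04), or 0.18 on library totals (adjusted p = 0.197). The rise in ob/ob livers was 1.27-fold (0.35, SE 0.13, adjusted p = 0.0315). That call was lost when any library of the 2 ob/ob groups other than vector replicate 2 was left out (adjusted p = 0.0547 to 0.106), and on library totals the value was -0.27 (adjusted p = 0.0621).

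Klf15, the fasting-induced zinc finger factor, had 233, 264 and 207 CPM with FH in fasted livers against 166, 230 and 210 CPM with vector, which overlapped. Levels in ob/ob livers were 141, 106 and 133 CPM with FH against 95.5, 76.3 and 74.1 CPM with vector, which did not. Klf15 rose 1.55-fold with FH in ob/ob livers (log2 0.63, SE 0.17, edgeR adjusted p = 0.00569), or 0.00 on library totals (adjusted p = 0.993). In fasted livers it stood at 0.22 (SE 0.16, adjusted p = 0.271), or -0.45 on library totals (adjusted p = 0.0297).

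Crtc2, the CREB coactivator, and Sik1, the kinase gene that CREB induces and that keeps CRTC2 out of the nucleus, were low in all libraries. Crtc2 had 31.0, 31.7 and 37.2 CPM with FH in fasted livers against 32.8, 46.3 and 44.4 CPM with vector, and in ob/ob livers 19.1, 20.2 and 20.3 CPM with FH against 26.8, 33.5 and 22.5 CPM with vector. Sik1 had 16.2, 13.0 and 15.4 CPM with FH in fasted livers against 15.5, 22.1 and 21.0 CPM with vector, and in ob/ob livers 7.61, 10.2 and 8.35 CPM with FH against 13.9, 21.4 and 8.84 CPM with vector. For both genes the ob/ob FH group had the lowest mean, and ob/ob vector replicate 2 was the highest of the ob/ob libraries. Crtc2 fell in ob/ob livers by 0.47 on the log2 scale (SE 0.16, edgeR adjusted p = 0.0236) and Sik1 fell by 0.75 (SE 0.26, adjusted p = 0.024). Without ob/ob vector replicate 2 these were -0.30 (adjusted p = 0.131) and -0.36 (adjusted p = 0.168). The calls were also lost without ob/ob FH replicate 1, at -0.46 for Crtc2 (adjusted p = 0.0603) and -0.68 for Sik1 (adjusted p = 0.0751), without ob/ob FH replicate 2 for Crtc2 (-0.48, adjusted p = 0.0586) and without ob/ob FH replicate 3 for Sik1 (-0.74, adjusted p = 0.0602). In fasted livers neither passed on TMM scaling, with -0.31 (SE 0.16, adjusted p = 0.118) for Crtc2 and -0.39 (SE 0.25, adjusted p = 0.201) for Sik1, although Crtc2 passed without fasted vector replicate 1 (-0.50, adjusted p = 0.0171). On library totals both were lower with FH in both models, Crtc2 by -0.98 and -1.10 and Sik1 by -1.07 and -1.37, and all 4 values passed.

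**Figure D2:**
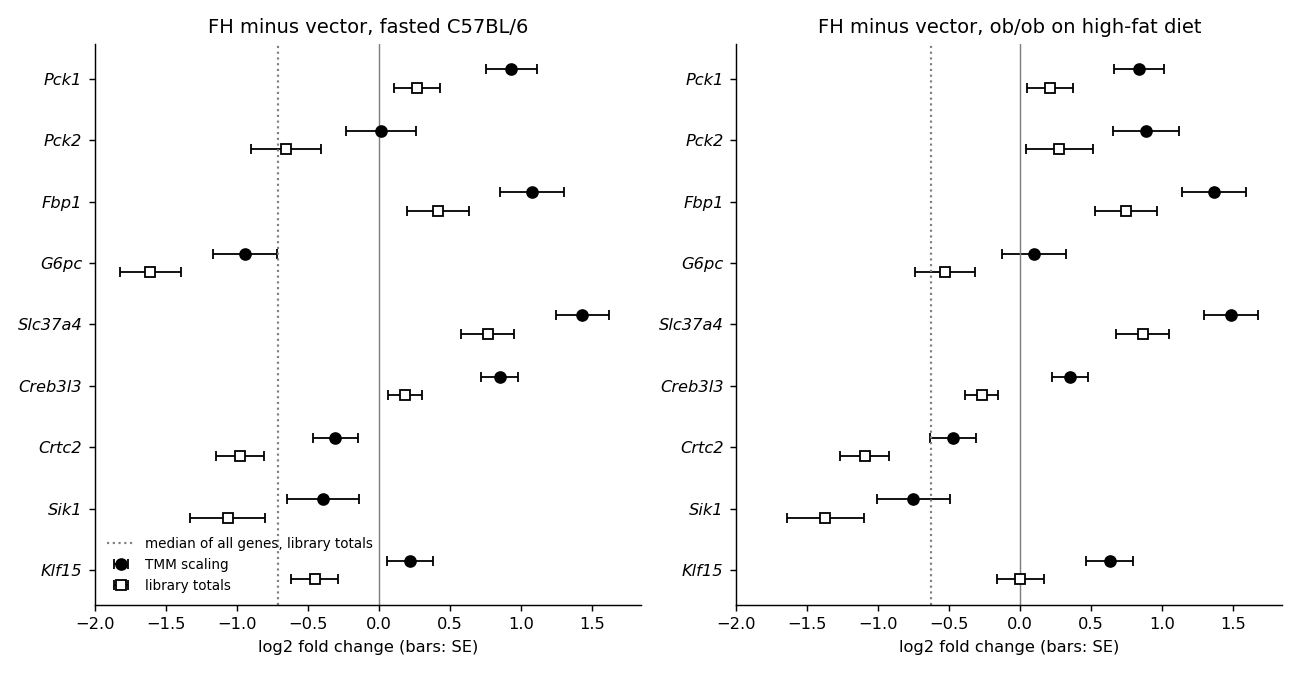
Log2 fold change of each gene for FH minus vector in fasted livers (left) and ob/ob livers (right), with SE as bars, under TMM scaling (filled circles) and on library totals (open squares). The dotted line is the median of all tested genes on library totals. Slc37a4, Fbp1 and Pck1 lie above 0 by more than their SE under both scalings in both models, and of these only Slc37a4 was called in each. G6pc lies below 0 under both scalings in fasted livers, and Crtc2 and Sik1 lie below 0 under both in both models.

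Whether the effect of FH differed between the models was asked for each gene in a single test. The ob/ob FH libraries alone differed in sex markers, which cannot be told apart from this difference, here or in the gene lists below. By edgeR 0 of the 9 genes passed, beside 8.42% of all tested genes, while 3 had an unadjusted p under 0.05 and DESeq2 called 2. G6pc came nearest, with an effect of FH that was higher in ob/ob than in fasted livers by 1.04 on the log2 scale (95% interval 0.361 to 1.72, edgeR adjusted p = 0.0584). The difference passed on library totals (1.08, adjusted p = 0.0462), without ob/ob vector replicate 2 (1.36, adjusted p = 0.00362), without the filter on low counts (1.09, adjusted p = 8.95e-04) and by DESeq2 (1.07, adjusted p = 0.015). It did not pass in edgeR with DESeq2 size factors, with the replicate number as a block or when any other single library was left out. For Creb3l3 the ob/ob effect was lower by 0.50 (interval -0.884 to -0.115, adjusted p = 0.1), called by DESeq2 alone (-0.47, adjusted p = 0.0416). For Pck2 the ob/ob effect was higher by 0.88 (interval 0.147 to 1.60, adjusted p = 0.125), and it passed without ob/ob vector replicate 3 (1.17, adjusted p = 0.0366). The other 6 genes gave intervals that included 0. They ran from -0.635 to 0.444 for Pck1, -0.512 to 0.612 for Slc37a4, -0.655 to 0.320 for Crtc2, -0.39 to 0.963 for Fbp1, -0.0888 to 0.911 for Klf15 and -1.13 to 0.414 for Sik1, so that differences within these limits are not excluded by the data.

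Ratios of the counts of 2 genes within a library do not depend on how the library is scaled, and they describe how G6pc parted from the other steps. These ratios were chosen after values were seen. In fasted livers the ratio of Pck1 to G6pc counts was 19.9, 19.5 and 17.4 in the FH libraries against 5.47, 4.62 and 5.57 in the vector libraries, 3.64-fold higher. The ob/ob livers gave 4.83, 5.61 and 5.04 with FH against 4.28, 1.95 and 3.73 with vector, 1.64-fold higher. The fasted FH libraries stood alone at the top, and the ob/ob FH libraries lay at the level of the fasted vector libraries. The ratio of Fbp1 to G6pc was 5.86 to 8.37 with FH and 1.54 to 2.01 with vector in fasted livers, 4.05-fold higher, and 3.97 to 6.21 against 0.98 to 3.47 in ob/ob livers, 2.42-fold higher. The ratio of Slc37a4 to G6pc, transporter to phosphatase, was 1.48 to 1.71 with FH and 0.286 to 0.330 with vector in fasted livers, 5.19-fold higher, and 0.345 to 0.510 against 0.0896 to 0.233 in ob/ob livers, 2.57-fold higher. Without ob/ob vector replicate 2, whose ratios were the lowest of all libraries for Pck1, Fbp1 and Slc37a4, the ob/ob differences shrank to 1.29-fold for Pck1, 1.64-fold for Fbp1 and 1.87-fold for Slc37a4. For these 3 ratios the groups did not overlap in either model, and the two-sided exact permutation p was 0.1, the smallest that 3 against 3 libraries can give. The ratio of Crtc2 to Sik1 stayed near 2-fold in all 12 libraries, from 1.57 to 2.54, with overlapping groups in both models. The ratio of Pck1 to Creb3l3 was 7.94 to 11.4 with FH and 7.94 to 8.94 with vector in fasted livers, which overlapped, and 7.10 to 8.33 against 4.64 to 6.77 in ob/ob livers, which did not.

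**Figure D3:**
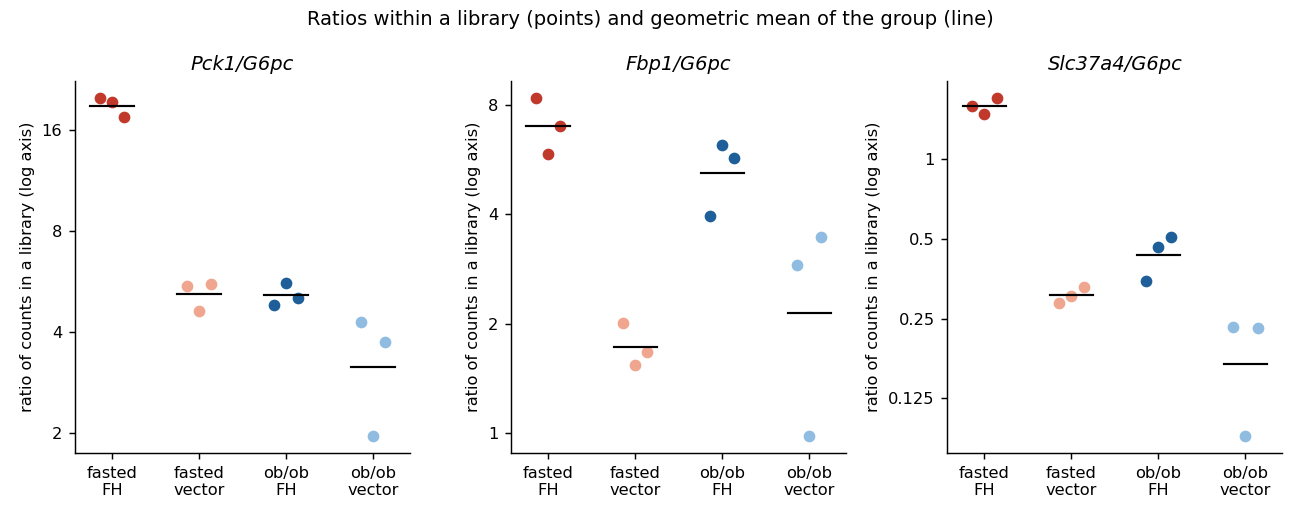
Ratio of the counts of Pck1, Fbp1 and Slc37a4 to those of G6pc within each library, on log axes, with the geometric mean of each group as a line. In every panel the FH libraries lie above the vector libraries of the same model, and the fasted FH libraries are the highest for Pck1 and Slc37a4.

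The vector groups give the level of these genes in ob/ob livers on a high-fat diet against fasted C57BL/6 livers, a comparison in which genotype, diet and fasting change together. Of the 9 genes 5 were lower in ob/ob livers, where 8.18% of all tested genes were called lower. Slc37a4 was 2.79-fold lower (log2 fold change -1.48, SE 0.19, edgeR adjusted p = 2.4e-04), Pck1 2.54-fold lower (-1.35, SE 0.18, adjusted p = 3.08e-04) and Klf15 2.46-fold lower (-1.30, SE 0.17, adjusted p = 2.47e-04). These values lay at the low end of the whole table, with 1.93%, 2.42% and 2.63% of all tested genes below them. Creb3l3 was lower by -0.69 (SE 0.13, adjusted p = 0.00245) and Crtc2 by -0.58 (SE 0.16, adjusted p = 0.0248). On library totals 4 of these passed as well, beside 4.21% of all genes, from -1.27 for Slc37a4 to -0.49 for Creb3l3, and Crtc2 did not (-0.37, adjusted p = 0.133). The call of Crtc2 was also lost without fasted vector replicate 2 or 3 or ob/ob vector replicate 1 or 3 (adjusted p = 0.0806 to 0.101). G6pc stood at -0.60 (adjusted p = 0.0842), Sik1 at -0.41 (adjusted p = 0.291), Fbp1 at -0.28 (adjusted p = 0.434) and Pck2 at 0.13 (adjusted p = 0.764). Without ob/ob vector replicate 2 both G6pc (-0.91, adjusted p = 0.00241) and Sik1 (-0.78, adjusted p = 0.015) passed.

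Between the FH groups, 6 of the 9 genes were lower in ob/ob than in fasted livers, beside 21.6% of all tested genes, and Pck2 was higher, beside 18.6%. Pck1 (log2 fold change -1.44, SE 0.18), Slc37a4 (-1.43, SE 0.19) and Creb3l3 (-1.19, SE 0.13) had the largest falls, with edgeR adjusted p of 7.37e-05, 9.98e-05 and 2.54e-05. Klf15 (-0.89), Crtc2 (-0.75) and Sik1 (-0.77) were lower as well. Sik1 lost its call without fasted FH replicate 1 or 3 or ob/ob FH replicate 1 or 3 (adjusted p = 0.0756 to 0.117), and on library totals (-0.51, adjusted p = 0.155). Pck2 was 2.01-fold higher (1.01, SE 0.24, adjusted p = 0.00457). Fbp1 stood at 0.01 (adjusted p = 0.987). G6pc was at 0.45 (adjusted p = 0.13), or 0.69 on library totals (adjusted p = 0.0201), and the ob/ob FH libraries lay above the fasted FH libraries without overlap. The sex markers differ between these groups too.

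Per kilobase of merged exons, which allows levels of different genes to be set side by side, the order of the 9 genes also moved. In fasted vector livers Pck1 led with a mean level of 924 CPM per kilobase, followed by Fbp1 at 623, G6pc at 255, Creb3l3 at 125, Klf15 at 72.3 and Slc37a4 at 65.8, with the last pair closer than their SDs (11.7 and 12.6). Crtc2 at 10.1, Sik1 at 3.80 and Pck2 at 0.54 came last. In fasted FH livers Pck1 and Fbp1 led at 1764 and 1317, and G6pc at 132 came after Creb3l3 at 225 and Slc37a4 at 178. In ob/ob FH livers Fbp1 led at 1322, followed by Pck1 at 649 and G6pc at 180, and in ob/ob vector livers Fbp1 at 513 (SD 162) and Pck1 at 363 (SD 70.9) stood within their spread, above G6pc at 168. Creb3l3 at 98.1 and Slc37a4 at 66.0 followed in ob/ob FH livers, and Creb3l3 at 77.0 and Klf15 at 29.4 in ob/ob vector livers. Pck2 was the lowest in every group, and its merged exons, at 7806 bases, were the longest of the 9 genes. Merged exons can be longer than any single RNA of a gene. Before division by length, Pck2 at 8.57 CPM (SD 1.17) and Sik1 at 8.72 CPM (SD 1.33) were alike in ob/ob FH livers.

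Over the 12 libraries, which share 4 groups, the log2 levels of Pck1, Slc37a4, Creb3l3 and Klf15 went together. Pearson's r was 0.961 between Pck1 and Slc37a4, 0.95 between Pck1 and Creb3l3, 0.945 between Pck1 and Klf15 and 0.919 between Slc37a4 and Creb3l3. It was lower between Slc37a4 and Klf15 (0.879) and between Creb3l3 and Klf15 (0.843). Crtc2 and Sik1 formed a second pair at 0.930. G6pc had r from -0.471 with Fbp1 to 0.424 with Sik1, including -0.143 with Pck1. Among 7724 other genes averaging 10 CPM or more, the levels most like those of G6pc were of Clpx (r = 0.910), Nfil3 (0.872) and Arntl (0.814), the last a clock activator and Nfil3 a clock-controlled repressor. Those most like Slc37a4 were of Cln8 (0.996), Por (0.984) and Sugp1 (0.979), and those most like Pck1 of Sdc4 (0.985), Fam207a (0.983) and Por (0.981). For Creb3l3 they were Eif4a1, Psmd9 and Dedd2 (0.982 to 0.987), for Klf15 Hmox2, Uspl1 and Arg1 (0.971 to 0.973), and for Fbp1 Cops7a, Babam2 and Eif6 (0.976 to 0.980). For Crtc2 they were Med1, Hnrnpu and Nrbp2 (0.957 to 0.967), for Sik1 Gmeb2, Neb and Med1 (0.938 to 0.947), and for Pck2 Lgmn, Emilin1 and Laptm5 (0.952 to 0.953). These are descriptions of 4 groups of libraries more than of 12 independent points.

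The other steps of the pathway mostly rose with FH, at TMM scaling, where 27.4% of all tested genes rose in fasted livers and 25.8% in ob/ob livers. Of 17 tested genes of the shared enzymes, shuttles and transporters, 16 rose in fasted livers, with a median log2 fold change of 1.31 against -0.04 for all tested genes, and G6pc3, the widely expressed phosphatase (-0.10), was not called. Again 16 of 17 rose in ob/ob livers, with a median of 1.2 against -0.01, and G6pc3 (-0.13) was not called. Got2, the mitochondrial aspartate aminotransferase, had 872 ± 29.1 CPM with FH and 238 ± 35.8 CPM with vector in fasted livers (SD, n = 3, log2 1.87) and 880 ± 32.1 against 287 ± 33.5 CPM in ob/ob livers (1.62). Slc2a2, the glucose transporter GLUT2, rose by 2.25 in fasted livers, and its effect was lower in ob/ob than in fasted livers by -0.99 (edgeR adjusted p = 0.0325). Mdh2 (1.51 and 1.28 in fasted and ob/ob livers), Slc25a13 (1.03 in fasted), Gpi1 (1.74 in ob/ob) and Mdh1 (1.16 in ob/ob), of the malate-aspartate shuttle and glycolysis, were among the clearest. On library totals 11 rose and 1 fell in fasted livers (median 0.65), beside 7.16% and 55.7% of all genes, and 10 rose and 1 fell in ob/ob livers (median 0.58), beside 6.83% and 53.3%. The summed hepatocyte markers were also higher with FH in both models, and their part in these rises was not tested.

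Of 19 genes that bring in amino acids, lactate, pyruvate and glycerol, 11 rose with FH in fasted livers and 11 in ob/ob livers, and 8 were not called in each, beside 27.4% and 25.8% of all tested genes called higher. The medians were 0.71 and 0.87, against -0.04 and -0.01 for all tested genes. Gpd1, the cytosolic glycerol-3-phosphate dehydrogenase, rose by 1.63 in fasted and 1.14 in ob/ob livers, Gpt, an alanine aminotransferase, by 1.13 and 1.29, and the amino acid transporter Slc38a4 by 1.15 and 0.87. Aqp9, the glycerol channel, rose by 1.15 in fasted livers and Prodh, the proline dehydrogenase, by 1.31 in ob/ob livers. Both mitochondrial pyruvate carrier subunits were not called and stood below 0, Mpc1 at -0.43 in each model and Mpc2 at -0.25 in fasted and -0.33 in ob/ob livers. Without fasted vector replicate 3 the count of rises in fasted livers was 7, and on library totals 5 rose and 4 fell there (median 0.04), beside 7.16% and 55.7% of all genes, and 4 rose and 4 fell in ob/ob livers (median 0.24), beside 6.83% and 53.3%. Without ob/ob vector replicate 2, 10 rose and 1 fell in ob/ob livers.

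Some genes of glucagon signalling rose and others fell with FH, and the share called was no higher than that of all tested genes. Of 22 genes, 8 rose and 2 fell with FH in fasted livers (median 0.25) and 7 rose and 3 fell in ob/ob livers (median 0.08), or 10 called in each, where 55.0% and 53.7% of all tested genes were called. Gnas, which encodes the stimulatory G protein, rose by 1.33 in fasted and 0.91 in ob/ob livers, and the catalytic subunits of protein kinase A rose as well, Prkaca by 0.92 and 1.22 and Prkacb by 0.81 and 0.60. Stk11, the kinase LKB1 that activates the salt-inducible kinases, rose by 0.95 in fasted livers. Creb1, the gene of CREB itself, fell by 0.67 in fasted livers and by 1.15 in ob/ob livers, where it had 11.2 ± 0.99 CPM with FH against 24.9 ± 6.13 CPM with vector (SD, n = 3). Pde4b (-0.55, in fasted livers), Adcy6 (-0.87) and Ep300 (-0.54, both in ob/ob livers) were the other falls, and Gcgr, the glucagon receptor, was not called (-0.07 and -0.20). Without ob/ob vector replicate 3 the ob/ob counts were 6 and 7, and without any of fasted vector replicates 1 and 3 and fasted FH replicates 2 and 3 the fasted falls came to 1. On library totals 1 rose and 10 fell in fasted livers (median -0.42), beside 7.16% and 55.7% of all genes, and 2 rose and 10 fell in ob/ob livers (median -0.54), beside 6.83% and 53.3%.

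Of 20 other transcription factors and coactivators that act on gluconeogenic genes, 8 rose and 2 fell with FH in fasted livers (median 0.33) and 4 rose and 3 fell in ob/ob livers (median -0.08). These shares of called genes were no higher than the 55.0% of all tested genes in fasted livers and the 53.7% in ob/ob livers. Foxo1, the factor that insulin signalling removes from the G6pc and Pck1 genes, rose by 1.12 in fasted and 0.83 in ob/ob livers, Cebpa by 1.37 and 1.19 and Hnf4a by 0.66 and 0.77. Foxo3 rose by 1.06 in fasted livers. Nr4a1, an immediate target of cAMP, fell by 1.67 in fasted livers, and Zbtb20 fell by 0.89 and 1.69. Ppargc1a, the coactivator PGC-1alpha, was not called with FH (0.32 and -0.67), and in the vector groups it was lower in ob/ob than in fasted livers by -1.04 (edgeR adjusted p = 0.0186). The rises in fasted livers were 5 without fasted FH replicate 1, the falls there were 1 without fasted vector replicate 3 or fasted FH replicate 3, and the falls in ob/ob livers were 1 without ob/ob vector replicate 1. On library totals 3 rose and 6 fell in fasted livers (median -0.33), and 1 rose and 9 fell in ob/ob livers (median -0.69), against medians of -0.71 and -0.63 for all tested genes. Of all genes, 7.16% rose and 55.7% fell on this scaling in fasted livers, and 6.83% and 53.3% in ob/ob livers.

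Among 13 genes induced by glucocorticoids, fasting or FOXO1, 3 rose and 5 fell with FH in fasted livers (median 0.10), and 2 rose and 2 fell in ob/ob livers (median 0.25). The share called was near the 55.0% of all tested genes in fasted livers and no higher than the 53.7% in ob/ob livers. Sgk1, a glucocorticoid-induced kinase, had 18.5 ± 3.27 CPM with FH against 58.4 ± 8.79 CPM with vector in fasted livers (SD, n = 3, log2 -1.66) and 24.9 ± 2.37 against 35.5 ± 3.92 CPM in ob/ob livers (-0.51). Dusp1 (-1.94), Pdk4 (-1.81), Zbtb16 (-1.05) and Tsc22d3 (-0.63) were the other falls in fasted livers, and Zbtb16 also fell in ob/ob livers (-1.17), where Fkbp5 rose by 1.09. The FH effect was higher in ob/ob than in fasted livers for 4 of the 13, Sgk1 by 1.15, Tsc22d3 by 1.2, Dusp1 by 1.5 and Pdk4 by 2.06 (edgeR adjusted p = 0.00776, 0.0397, 0.0429 and 0.0439), beside 4.77% of all tested genes. In the vector groups 9 of the 13 were lower in ob/ob than in fasted livers, among them Zbtb16 (-3.39), Fkbp5 (-3.04), Igfbp1 (-2.79) and Tsc22d3 (-2.0), beside 8.18% of all tested genes. The rises in fasted livers came to 1 without fasted vector replicate 1 or 3 or fasted FH replicate 3. In ob/ob livers 1 rose without ob/ob FH replicate 1 or 3 or vector replicate 1, and 5 rose and 1 fell without vector replicate 3. On library totals 5 fell in fasted livers and 3 in ob/ob livers, beside 55.7% and 53.3% of all genes. The others were not called, and the medians were -0.58 and -0.37 against -0.71 and -0.63 for all tested genes.

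Of 11 genes reported as targets of CREBH, 6 rose and 1 fell with FH in fasted livers (median 1.46), and 5 rose and 1 fell in ob/ob livers (median 0.81). The share called was near the 55.0% of all tested genes in fasted livers and the 53.7% in ob/ob livers. The medians of all tested genes were -0.04 and -0.01. Apoa5, which promotes the clearance of plasma triglyceride, rose by 1.68 and 1.35, Cpt1a by 1.53 in fasted livers, and Hamp, the gene of hepcidin, by 2.42 in fasted livers. Hamp2 rose by 5.08 and Crp by 1.01 in ob/ob livers. Apoc2, the activator of lipoprotein lipase, was the fall in both models, at -2.76 and -2.50. Fgf21 was not called in either model (-0.85 and 0.10). Without ob/ob FH replicate 2 or 3 the ob/ob rises came to 3. On library totals 4 rose and 2 fell in fasted livers (median 0.81), beside 7.16% and 55.7% of all genes. In ob/ob livers 3 rose and 1 fell (median 0.20), beside 6.83% and 53.3%.

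**Figure D4:**
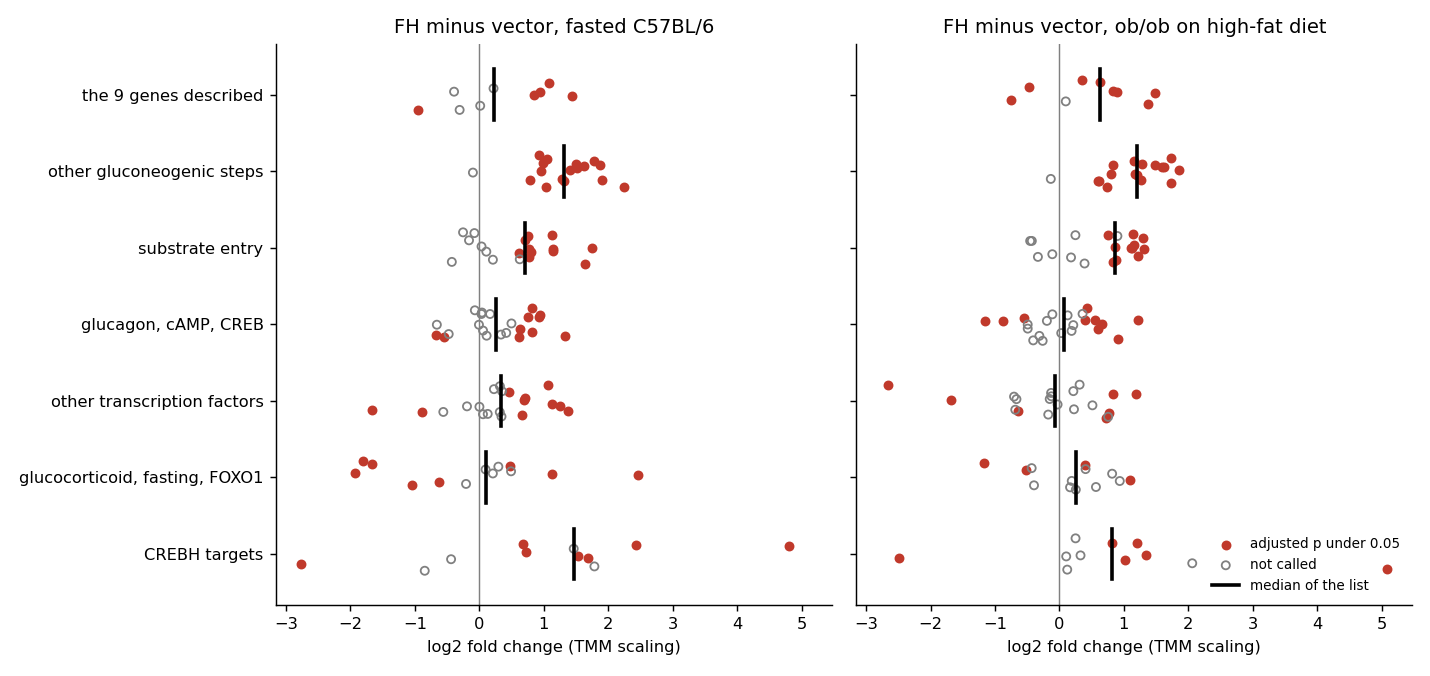
Log2 fold change with TMM scaling for FH minus vector in fasted livers (left) and ob/ob livers (right), with each point a tested gene, grouped by list. Red points were called at an edgeR adjusted p under 0.05, open points were not, and black bars are list medians. The other gluconeogenic steps lie almost wholly above 0 in both models, while the signalling and response lists spread to both sides.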

How the data were processed

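The authors' deposited table holds raw read counts per gene for 12 libraries, with symbols in capitals. STAR 2.7.11a and GRCm39 are named per the submitters' processing notes, and RNA was TRIzol extracted and made into stranded mRNA libraries, per the labels' protocols. Counting tool, annotation and strand setting: not given in the sources used here. Symbols were given mouse spelling with GENCODE M21 (GRCm38), which also gave exon lengths and overlaps. Genes passing filterByExpr (minimum 10 counts, 15 in total; 15228 of 56441) were fitted with edgeR 4.0.16 in R 4.3.3: quasi-likelihood F test, TMM scaling, the 4 groups in a single model with 8 residual degrees of freedom, and Benjamini-Hochberg adjustment over all tested genes, called under 0.05. FH was set against vector in fasted and in ob/ob livers, the 2 effects were set against each other, and ob/ob was set against fasted with vector and with FH, which makes 5 comparisons. Comparisons share libraries. The rule named all 9 genes, up to 4 called examples per list with the smallest adjusted p, and the 3 genes most like each member. Other list genes were named after their values were seen. Alternatives were library totals, DESeq2 size factors, no filter, DESeq2 1.42.0, the replicate number as a block, only the groups compared, and each library left out. Steps were tested on simulated data. The 9 genes, the lists and the tests were chosen with earlier results of these data known, so list counts are descriptions.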

Additional observations from a re-analysis of the deposited data

How the results depend on the processing

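On library totals the members called higher and lower with FH were 1 and 5 in fasted livers and 2 higher in ob/ob livers, 1 member was called higher in the difference between models, and 2 were higher in ob/ob than fasted FH libraries. Signs turned on library totals for Pck2 (-0.65) and Klf15 (-0.45) in fasted livers and Creb3l3 (-0.27) and G6pc (-0.53) in ob/ob livers. These values moved about as far as the median of all genes, which shifted by -0.67 in fasted livers and -0.62 in ob/ob livers. The cause of the difference between the scalings was not tested. Pck2 in fasted livers, which was near 0, also turned with DESeq2 size factors (-0.0327), no filter (-0.0128), DESeq2 (-0.0327) and only the groups compared (-0.0343). In fits of only the groups compared, which hold fewer samples, 2 members fell in fasted livers, 1 fell in ob/ob livers, 2 were higher in ob/ob than fasted FH libraries, and 1244 genes differed between the vector groups. Without the filter, 1 member was higher in the difference and 2 in ob/ob than fasted FH libraries. DESeq2 called 1 member higher (G6pc) and 1 lower (Creb3l3) in the difference.

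As libraries were left out in turn, members called lower ran from 1 to 2 in fasted livers and from 0 to 2 in ob/ob livers, members higher in the difference from 0 to 1, genes called in the difference from 582 to 1651, and genes called between vector groups from 1669 to 3412. Values that crossed 0 were all uncalled: Pck2 (-0.10 to 0.18) in fasted livers, G6pc (-0.0686 to 0.43) in ob/ob livers, the differences of Pck1 (-0.18 to 0.0739), Slc37a4 (-0.12 to 0.22), Crtc2 (-0.30 to 0.0134) and Sik1 (-0.62 to 0.0142), Pck2 between vector groups (-0.16 to 0.28) and Fbp1 between FH groups (-0.0644 to 0.13).

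Replicate numbers did not pair the libraries: over 18 same-numbered pairs the correlation of deviations from group means was -0.15 to 0.16, with 4 over 0.1. With the replicate block, 8207 and 8073 genes were called for FH in fasted and ob/ob livers, and the counts of members called did not change in any of the 5 comparisons.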
